A study of Mus musculus with 65 samples.

Results

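Lhx2, Emx2 and Pax6, 3 transcription factor genes that pattern the dorsal telencephalon, were followed through 65 single mouse cells. They were taken by name from the deposited tables and make up 3 of the 10407 genes measured there. Each cell gave 1 Patch-seq library, for which the content of a single cell is drawn into a pipette and sequenced. The study asked how apical progenitors, the dividing cells that line the ventricle, change when they are moved into the brain of a younger embryo. The transplanted group held 19 progenitors of embryonic day 15 (E15) that had been placed in an embryonic day 12 (E12) brain. The E15 group held 26 cells of that age and the E12 group 20 cells of that age, both wild type and both marked with FlashTag, a dye that labels cells dividing at the ventricular surface. All cells came from CD1 mice and their source is given as neuronal progenitors. No animal, litter or host is named, so a group counts as 1 sample here, and differences between groups carry neither a p-value nor a standard error.

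LHX2, a LIM-homeodomain protein, is a selector of cortical identity: in mice that lack it, the medial wall of the early telencephalon turns into cortical hem. EMX2, a homeodomain protein, is graded across the cortical ventricular zone from high caudally and medially to low rostrally and laterally, and favours caudal areas. PAX6, which carries a paired domain and a homeodomain, is graded in the opposite way, favours rostral areas and drives radial glia towards neurogenesis. All 3 genes are expressed in dividing progenitors of the dorsal ventricular zone, and Pax6 is turned down as cells become intermediate progenitors and neurons.

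In GRCm38 with GENCODE vM21, Lhx2 is at chr2:38339281-38369733, Emx2 at chr19:59458372-59465357 and Pax6 at chr2:105668900-105697364, all protein coding and on the plus strand. Each overlaps genes on the opposite strand, namely Gm27197 and Gm13584 at Lhx2, Emx2os at Emx2 and Pax6os1 at Pax6. Whether the counting used strand is not stated, so reads of these antisense genes could not be told apart from reads of the 3 genes. All 3 genes had an entry among the RefSeq promoter windows of GRCm38.p6, with 2 windows each for Lhx2 and Pax6 and 1 for Emx2. For Lhx2 and Pax6 only the more upstream window was used. The 250 bases before the start are shown for Lhx2 and Pax6, the pair whose relative level is compared between groups below, 5′ to 3′ on the plus strand. They cover chr2:38339031-38339280 for Lhx2 and chr2:105668646-105668895 for Pax6. Capitals mark the homeodomain core TAAT or ATTA and the GC box GGGCGG or CCGCCC, searched on both strands.
Lhx2: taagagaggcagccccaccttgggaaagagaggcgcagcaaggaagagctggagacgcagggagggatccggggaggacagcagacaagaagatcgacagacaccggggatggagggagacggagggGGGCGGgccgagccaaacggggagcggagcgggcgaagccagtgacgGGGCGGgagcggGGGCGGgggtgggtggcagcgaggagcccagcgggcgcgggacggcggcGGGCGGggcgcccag
Pax6: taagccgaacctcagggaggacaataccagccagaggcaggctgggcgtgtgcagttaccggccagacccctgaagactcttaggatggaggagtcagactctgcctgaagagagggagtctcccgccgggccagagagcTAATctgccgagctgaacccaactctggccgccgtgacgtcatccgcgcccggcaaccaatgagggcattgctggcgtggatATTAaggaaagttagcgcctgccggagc
The Lhx2 window held 4 GC boxes and 0 homeodomain cores. The Pax6 window held 2 homeodomain cores and 0 GC boxes. The Emx2 window, which lies inside the annotated gene and is not shown, held 1 homeodomain core and 2 GC boxes. Of all 32851 windows of this length, 54.9% held the homeodomain core and 32.7% held the GC box. The GC content was 72.8% for Lhx2 and 60.8% for Pax6, against a median of 52.4% over all windows. These letters describe the windows and show no binding.

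The median depth was 166134 reads in transplanted (22358 to 3622411), 998629.5 in E15 (11449 to 4560871) and 148824 in E12 cells (10928 to 1635767). In 16 libraries more than 8000 genes were detected, 5 of 19 transplanted, 11 of 26 E15 and 0 of 20 E12 libraries. These many-gene libraries were deeper by median and differed from the others in the medians of their summed markers, though not every library followed this. Transplanted replicate 14, with 8193 genes, had 147 CPM of ventral telencephalic and interneuron markers. E15 replicate 26, with 7587 genes, had 3402 CPM of them. In the many-gene libraries these summed markers had a median of 2824 CPM (reads of a gene scaled to the same total in every library) in transplanted and 3755 CPM in E15 cells. In the other transplanted and E15 libraries the medians were 277 and 80.5 CPM. Summed apical progenitor markers had medians of 3256 and 2988 CPM in many-gene transplanted and E15 cells, against 7602 and 21749 CPM in the others. Fabp7 and Dbi, both on the apical list, held 8230 and 6491 of the 20344 CPM summed over the other E15 cells. Neuronal markers had medians of 8672 and 7435 CPM, against 2875 and 2051 CPM in the others. Microglial markers were higher in many-gene E15 cells (3024 against 119 CPM) but lower in many-gene transplanted cells (29.5 against 374 CPM). Levels are therefore given with and without them, and their part in any difference was not tested.

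Lhx2 was highest per cell in E12 cells, followed by transplanted cells and then E15 cells. Transplanted cells ran from 0 CPM to 2569.7 CPM with a median of 506 CPM. E15 cells ran from 0 CPM to 1143 CPM with a median of 83.5 CPM. E12 cells ran from 0 CPM to 3142 CPM with a median of 893 CPM. All 3 groups overlapped, but 19 of 20 E12 cells had a read and the quartiles of the E15 cells lay at 19.9 and 386 CPM, below the E12 lower quartile of 440.4 CPM. The quartiles of the transplanted cells, 70.9 and 919 CPM, spanned a range that overlapped both other groups. In the many-gene libraries the median was 68.7 CPM in transplanted and 27.3 CPM in E15 cells. Without them it was 639 CPM in transplanted, 374 CPM in E15 and 893 CPM in E12 cells, the same order with E15 cells nearer to the others. The E15 upper quartile was then 609 CPM, above the E12 lower quartile of 440.4 CPM.

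Emx2 gave the fewest reads of the 3 and was undetected in many cells of each group. Transplanted cells ran from 0 CPM to 447 CPM with a median of 4.97 CPM. E15 cells ran from 0 CPM to 579.9 CPM with a median of 12.6 CPM. E12 cells ran from 0 CPM to 556 CPM with a median of 143 CPM. The highest cell was much alike in the 3 groups, whereas the medians of the transplanted and E15 cells lay far below that of the E12 cells. Leaving out the many-gene libraries gave medians of 10.7 CPM in transplanted, 28.4 CPM in E15 and 143 CPM in E12 cells.

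Pax6 had its highest single values in E12 cells. Transplanted cells ran from 0 CPM to 956 CPM with a median of 307 CPM. E15 cells ran from 30.8 CPM to 1922 CPM with a median of 234 CPM. E12 cells ran from 0 CPM to 6566 CPM with a median of 1108 CPM. No transplanted cell reached the E12 median, and the quartiles of the transplanted cells, 35.0 and 438 CPM, lay below the E12 lower quartile of 452 CPM. The many-gene E15 libraries ran from 30.8 CPM to 245 CPM with a median of 139 CPM. The other E15 libraries ran from 78.9 CPM to 1922 CPM. Without the many-gene libraries the median of the E15 cells was 1032 CPM, close to the 1108 CPM of the E12 cells, while that of the transplanted cells was 352 CPM. For Pax6 the order of transplanted and E15 medians thus turned with these libraries. Without them the upper quartile of the transplanted cells was 564 CPM, above the E12 lower quartile of 452 CPM.

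**Figure D1:**
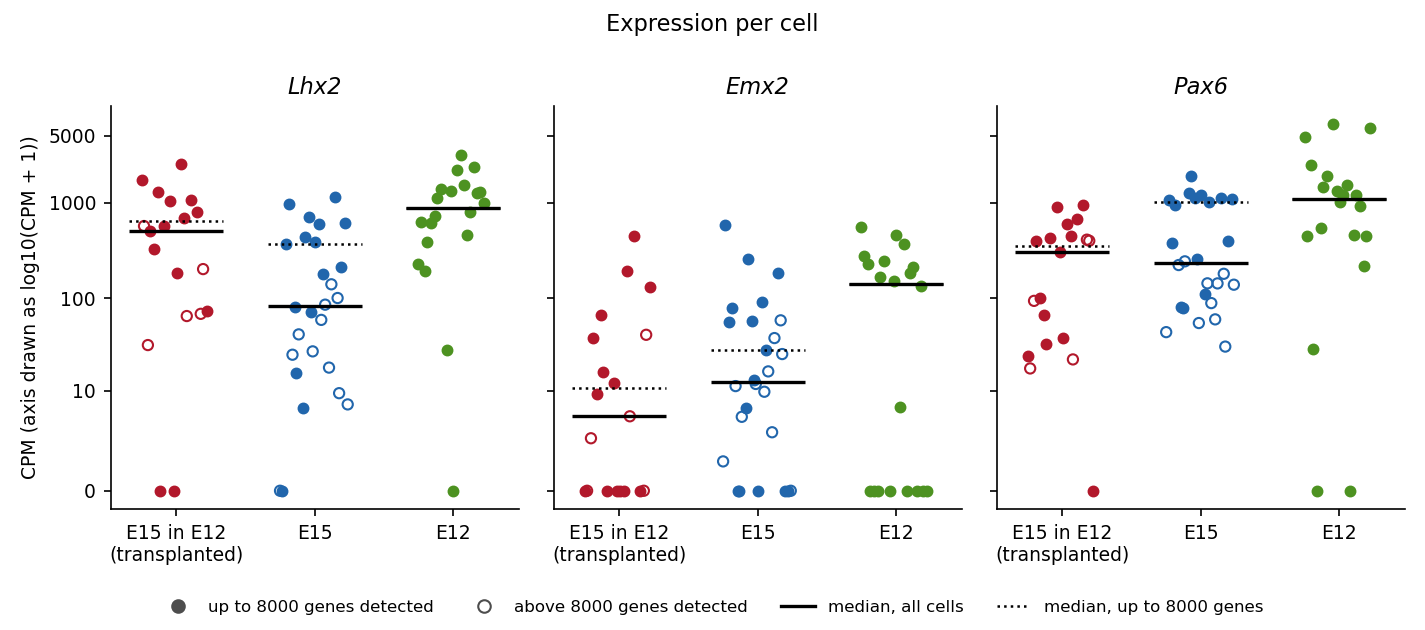
Level of each gene in each cell (CPM, drawn as log10(CPM + 1)) in transplanted, E15 and E12 cells; each point is 1 cell, open points are libraries above 8000 genes, solid lines are medians of all cells and dotted lines medians of the other libraries. The open E15 points sit low for Lhx2 and Pax6, and the dotted Pax6 line of the E15 cells, at 1032 CPM, is near the E12 median of 1108 CPM.

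The comparison of E15 with E12 cells sets side by side cells 3 days apart in age, neither group transplanted. The groups also differed in depth and in their share of many-gene libraries, and the part of age alone was not tested. With the reads of a group added up, Lhx2 stood at 177 CPM (173 to 181) in E15 cells, against 1133 CPM (1103 to 1163) in E12 cells. Emx2 stood at 31.0 CPM (29.2 to 32.8) in E15 cells, against 146 CPM (136 to 157) in E12 cells. Pax6 stood at 289 CPM (284 to 294) in E15 cells, against 1681 CPM (1645 to 1718) in E12 cells. The bounds are 95% Poisson limits of the reads alone. They leave out the noise of PCR, since several reads can come from 1 molecule and the kit has no molecular identifiers. All 3 were thus lower in the E15 sum, with log2 ratios of -2.67 for Lhx2, -2.20 for Emx2 and -2.54 for Pax6, on a scale with a pseudocount of 1 CPM. As a background, 20.3% of the 10193 genes with at least 5 CPM in either group were at least 2-fold lower in E15 cells and 25.3% at least 2-fold higher. Over the libraries up to 8000 genes the ratios were -1.17 for Lhx2, -1.20 for Emx2 and -1.18 for Pax6. All 3 were still past 2-fold, beside 21.6% of all genes tested there that were lower and 24.2% that were higher in E15 cells.

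The size of this difference depended on how cells were weighted. With the mean of the CPM per cell and without the many-gene libraries it was -1.42 for Lhx2, -0.72 for Emx2 and -1.02 for Pax6, so Emx2 was no longer past 2-fold. On medians per cell without these libraries it was -1.25 for Lhx2, -2.29 for Emx2 and -0.10 for Pax6. The labels divide the cells into 8 pools, A to H, without saying what a pool is. Within pools Lhx2 was lower in E15 cells in 7 of 8, with a ratio of 0.00 in pool A. Pax6 was lower in E15 cells in 7 of 8 pools and Emx2 in 6 of 8. Leaving out pool F moved Emx2 to -3.0. Neuronal markers moved with the comparison: their summed median was 5600 CPM in E15 and 1367 CPM in E12 cells, and that of microglial markers was 989 CPM in E15 and 35.3 CPM in E12 cells. Ventral telencephalic and interneuron markers, 14 of 16 listed genes, had a summed median of 951 CPM (0 to 4583) in E15 and 62.4 CPM (0 to 2232) in E12 cells. Over the E15 libraries up to 8000 genes the medians were 80.5 CPM for ventral, 2051 CPM for neuronal and 119 CPM for microglial markers. The part of these markers was not tested.

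The comparison of transplanted with E15 cells sets side by side cells of the same age with and without a move into the younger brain. No group held E15 cells placed in an E15 brain, so the age of the host cannot be told apart from the transplantation itself. Lhx2 stood higher in transplanted cells, at 296 CPM (287 to 306), against 177 CPM in E15 cells. Emx2 stood lower in transplanted cells, at 18.6 CPM (16.3 to 21.1), against 31.0 CPM in E15 cells. Pax6 stood lower in transplanted cells, at 188 CPM (181 to 196), against 289 CPM in E15 cells. The log2 ratios were 0.74 (0.68 to 0.80) for Lhx2, -0.71 (-0.90 to -0.51) for Emx2 and -0.61 (-0.68 to -0.55) for Pax6. None of the 3 was past 2-fold, where 11.8% of 10163 genes were lower and 4.71% higher in transplanted cells. Single libraries decided this side of 2-fold. Lhx2 came to 1.16 without E15 replicate 13 and to 1.13 without transplanted replicate 15. Transplanted replicate 19 held 34.7% to 42.9% of the transplanted reads of each gene, and without it Emx2 came to -1.14 and Pax6 to -1.09. Emx2 came to -1.09 without transplanted replicate 2. Leaving out pool E, F or H put Lhx2 at 1.19, 1.03 or 1.07, leaving out pool B or G put Emx2 at -1.17 or -1.14, and leaving out pool B put Pax6 at -1.14. Without pool E the ratio of Pax6 was -0.00.

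Without the many-gene libraries the sums of Lhx2 were nearly equal, at 513 CPM in transplanted and 503 CPM in E15 cells, a ratio of 0.03. Pax6 was then further apart, at 320 CPM (304 to 336) in transplanted and 742 CPM (726 to 758) in E15 cells, a ratio of -1.21. Emx2 stood at 40.1 CPM in transplanted and 63.0 CPM in E15 cells, a ratio of -0.64. Of the 3 genes, Pax6 alone was past 2-fold there, beside 28.0% of all genes that were lower and 18.7% that were higher in transplanted cells. On the mean of the CPM per cell without these libraries the ratio was 1.0 for Lhx2, -0.47 for Emx2 and -1.17 for Pax6. In these sums and means the ratio of Lhx2 was never below 0 and that of Pax6 always was, while on the median of all cells Pax6 was higher in transplanted cells, with a ratio of 0.39.

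Within pools, Lhx2 was higher in transplanted than in E15 cells in 7 of 7 pools that held both, with log2 ratios of 0.12 to 3.79. Pax6 was lower in 3 of these pools and higher in 4, and Emx2 lower in 5 and higher in 2. The pools did not hold equal numbers of many-gene libraries, and no pool held more than 5 cells of a group. Red cell markers moved with the comparison, with a summed median of 4698 CPM in transplanted and 116 CPM in E15 cells over 5 of 8 listed genes. Apical progenitor markers had a summed median of 6859 CPM in transplanted and 5338 CPM in E15 cells. Without the many-gene libraries it was 7602 CPM in transplanted and 21749 CPM in E15 cells, against 7896 CPM in E12 cells. Most of the E15 sum came from Fabp7 and Dbi. In that set 11 of the 20 apical genes were lower in E15 than in E12 cells and 9 higher. Their median log2 ratio was -0.47, against -0.01 for all genes. In transplanted over E15 cells 15 of 19 apical genes tested were lower and 4 higher (median -0.50, against -0.13 for all genes). Microglial markers, 14 of 15 listed genes, had a median of 268 CPM (0 to 25940) in transplanted and 989 CPM (2.64 to 9772) in E15 cells. Without the many-gene libraries this order turned, with 374 CPM in transplanted and 119 CPM in E15 cells. The part of these markers was not tested.

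The comparison of transplanted with E12 cells sets the moved progenitors beside cells of the host's age. Lhx2 stood at 296 CPM in transplanted and 1133 CPM in E12 cells, a log2 ratio of -1.93. Emx2 stood at 18.6 CPM in transplanted and 146 CPM in E12 cells, a ratio of -2.91. Pax6 stood at 188 CPM in transplanted and 1681 CPM in E12 cells, a ratio of -3.15. All 3 were past 2-fold, beside 24.7% of 9931 genes lower and 22.9% higher in transplanted cells. Without the many-gene libraries the ratios were -1.14 for Lhx2, -1.84 for Emx2 and -2.39 for Pax6, beside 29.8% of all genes lower and 22.5% higher. Lhx2 was the nearest of the 3 to its E12 level in every setting shown in the plot of ratios, and on the mean per cell it lay within 2-fold, at -0.73 over all cells and -0.41 without the many-gene libraries.

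Pax6 was lower in transplanted than in E12 cells in 7 of 7 pools, although in pool A the ratio was -0.01. Lhx2 was lower in 5 and higher in 2 of these pools, and Emx2 lower in 6 and higher in 1. Leaving out pool E, which held 1 transplanted cell, moved Pax6 to -2.17. Neuronal markers had a summed median of 4057 CPM in transplanted and 1367 CPM in E12 cells, ventral markers 811 CPM in transplanted and 62.4 CPM in E12 cells, and microglial markers 268 CPM in transplanted and 35.3 CPM in E12 cells. Over the transplanted libraries up to 8000 genes the medians were 2875 CPM for neuronal, 277 CPM for ventral and 374 CPM for microglial markers. The part of these markers in the differences was not tested. The 3 comparisons share their groups and are not independent of each other.

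**Figure D2:**
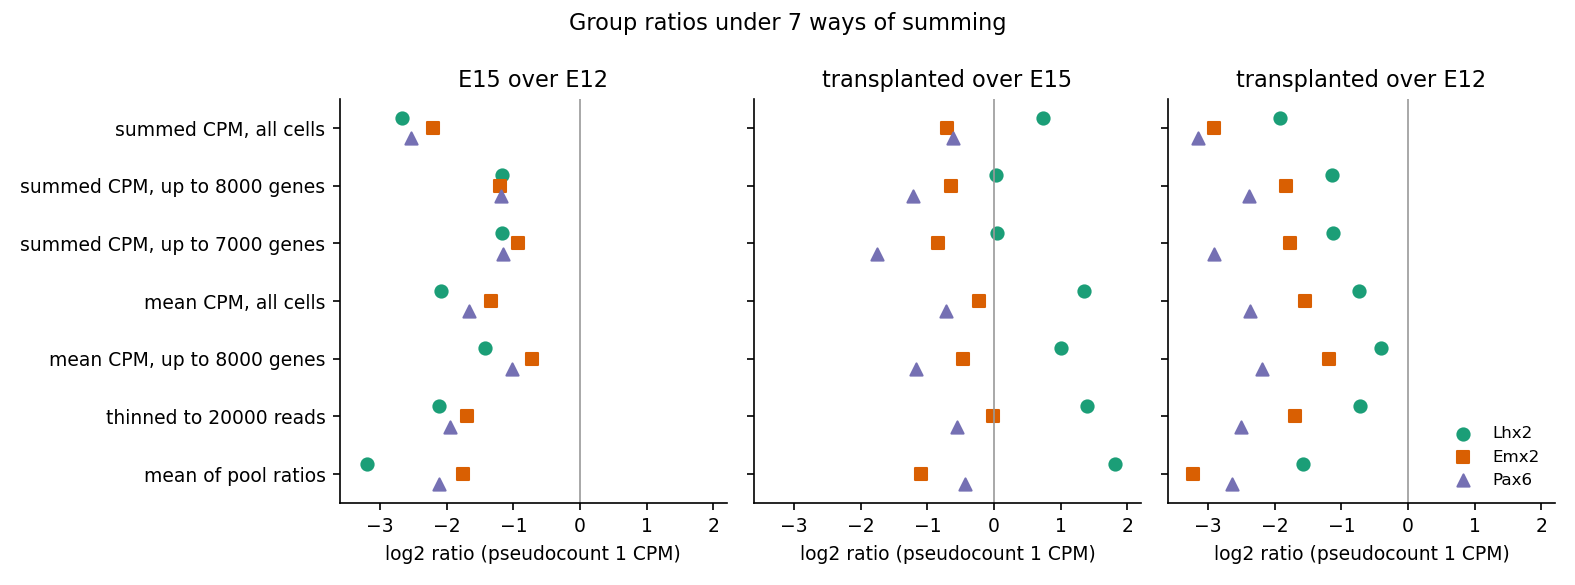
Log2 ratio (horizontal axis, pseudocount 1 CPM) of Lhx2, Emx2 and Pax6 in each comparison, with 1 row for each of 7 ways of summing the cells. In E15 over E12 all markers lie left of 0, in transplanted over E15 the Lhx2 circles lie between 0.03 and 1.82 and the Pax6 triangles between -1.76 and -0.44, and in transplanted over E12 all lie left of 0 with Lhx2 nearest to it.

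Reads of Lhx2 and Pax6 were found in nearly every cell, and those of Emx2 in fewer. Lhx2 had a read in 17 of 19 transplanted, 24 of 26 E15 and 19 of 20 E12 cells. Pax6 had a read in 18 of 19 transplanted, 26 of 26 E15 and 18 of 20 E12 cells. Emx2 had a read in 11 of 19 transplanted (57.9%, exact binomial limits 33.5 to 79.7), 20 of 26 E15 (76.9%, 56.4 to 91.0) and 12 of 20 E12 cells (60.0%, 36.1 to 80.9). Since the E15 libraries were deeper, the share expected at 20000 reads per cell was computed, leaving out the shallower 1 E15 and 2 E12 cells. For Emx2 it was 30.6% in transplanted, 33.9% in E15 and 60.9% in E12 cells. For Lhx2 it was 82.8% in transplanted, 65.9% in E15 and 91.3% in E12 cells. For Pax6 it was 77.7% in transplanted, 91.0% in E15 and 91.4% in E12 cells. Without the many-gene libraries the share for Emx2 was 36.5% in transplanted, 41.3% in E15 and 60.9% in E12 cells. For Lhx2 it was then 84.3% in transplanted, 79.6% in E15 and 91.3% in E12 cells, and for Pax6 80.3% in transplanted, 97.9% in E15 and 91.4% in E12 cells. E12 cells thus had the highest expected share for Lhx2 and Emx2 in both sets, while for Pax6 the order of E15 and E12 cells turned with these libraries. Transplanted cells lay above E15 cells for Lhx2 and below them for Pax6 in both sets. No interval was computed for these expected shares. Without the many-gene libraries the Lhx2 shares of 84.3% and 79.6% lay close together and rested on 14 cells in each group.

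Every cell had reads of at least 1 of the 3 genes. All 3 were read in 9 of 19 transplanted (47.4%, 24.4 to 71.1), 18 of 26 E15 (69.2%, 48.2 to 85.7) and 11 of 20 E12 cells (55.0%, 31.5 to 76.9). Most of the others lacked only Emx2: 7 transplanted, 6 E15 and 6 E12 cells had Lhx2 and Pax6 without it. These intervals overlap widely.

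The balance of Lhx2 and Pax6 within a cell was examined after their levels had been seen, and it needs no scaling by depth. The kit reads the 3′ end, so the 2 genes were compared by reads, and only the difference of this balance between groups is meant. More reads of Lhx2 than of Pax6 were found in 13 of 19 transplanted (68.4%, 43.4 to 87.4), 3 of 26 E15 (11.5%, 2.45 to 30.2) and 10 of 20 E12 cells (27.2 to 72.8%). These limits treat cells of unnamed animals as independent and are no test between groups. Among libraries up to 8000 genes the counts were 11 of 14 transplanted, 3 of 15 E15 and 10 of 20 E12 cells. The median Lhx2 share of the reads of both genes was 60.9% (0 to 100) in transplanted, 26.9% (0 to 84.3) in E15 and 53.6% (0 to 100) in E12 cells. By the exact limits of each cell, the share was above 50% in 9 transplanted, 1 E15 and 8 E12 cells, and below 50% in 4 transplanted, 17 E15 and 8 E12 cells. These limits cover counting error only.

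**Figure D3:**
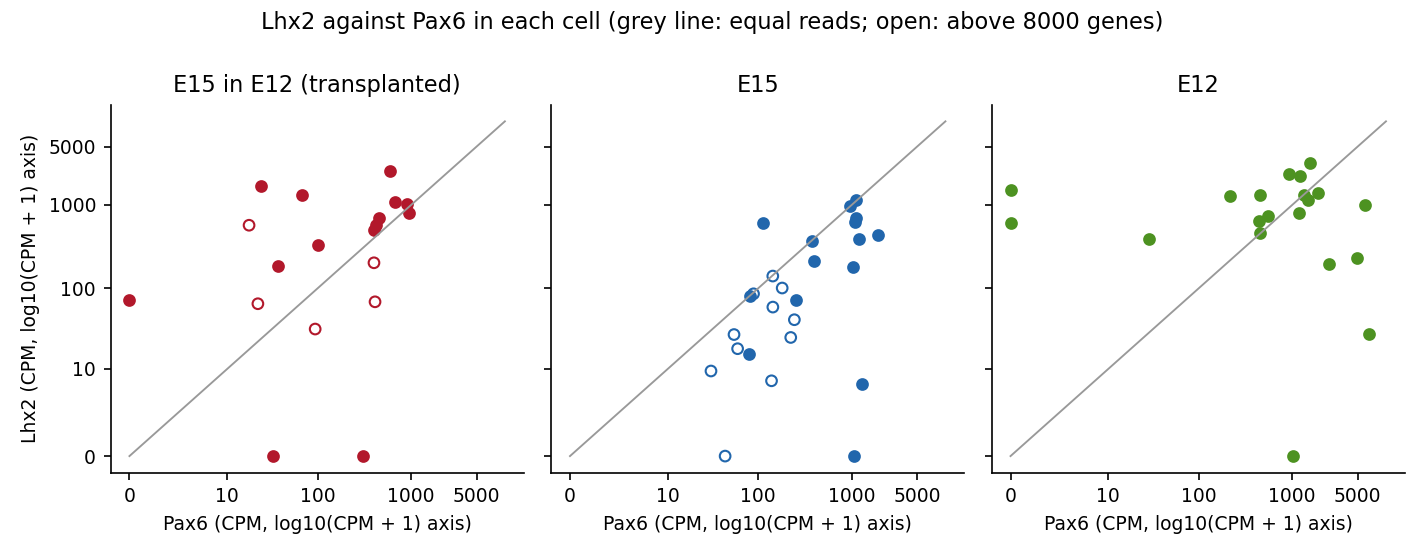
Lhx2 (vertical axis) against Pax6 (horizontal axis) in each cell, both in CPM on log10(CPM + 1) axes, for transplanted, E15 and E12 cells; the grey line marks equal reads and open points are libraries above 8000 genes. Above the line lie 13 of 19 transplanted, 3 of 26 E15 and 10 of 20 E12 cells.

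Summed over cells, Lhx2 made up 61.1% of the reads of both genes in transplanted, 38% in E15 and 40.3% in E12 cells. Leaving out any 1 cell kept it at 54.8% to 65% in transplanted, 35.0% to 39.9% in E15 and 36.0% to 45.7% in E12 cells. The sums of E15 and E12 cells were therefore alike, unlike their medians. Within each of the 7 shared pools the share was higher in transplanted than in E15 cells. The gap was smallest in pool B, with 37.5% in transplanted and 21.9% in E15 cells, and next in pool G, with 58.9% in transplanted and 41.6% in E15 cells. It was widest in pool E, with 98.6% in the 1 transplanted cell and 36.9% in 4 E15 cells.

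**Figure D4:**
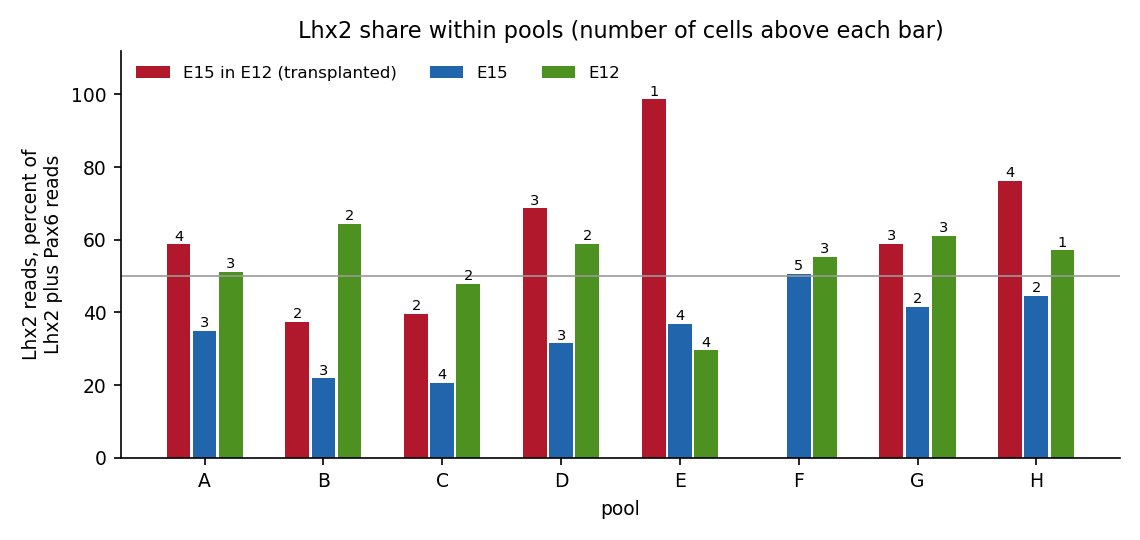
Lhx2 reads as a percent of Lhx2 plus Pax6 reads (vertical axis) in each pool (horizontal axis), summed over the cells of a group, whose number stands above the bar. The transplanted bar is above the E15 bar in all 7 pools that have both; pool F held no transplanted cell.

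The deposited values are log10 residuals, from which the authors had taken the mean of each gene and 2 further directions over cells. They keep 61.1% of the log10 variance of Lhx2, 84.1% of that of Emx2 and 61.6% of that of Pax6. On this scale the medians of Lhx2 were 0.21 in transplanted, -0.23 in E15 and 0.24 in E12 cells, and 12 of 19, 8 of 26 and 16 of 20 cells lay above 0. The medians of Emx2 were -0.26 in transplanted, -0.13 in E15 and 0.29 in E12 cells. The medians of Pax6 were -0.06 in transplanted, 0.10 in E15 and 0.18 in E12 cells. E15 cells were thus lowest for Lhx2 and transplanted cells lowest for Pax6 by median on the authors' scale. The directions removed hold 24.2% of the variance of E12 membership, against 8.81% for E15 and 3.31% for transplanted membership. They hold a larger part, 74.5%, of the variance in how many genes a library showed. For library depth, taken as log10, the part is 41.3%. How much of each difference between groups these directions took out was not tested. For Pax6 the means ran the other way from the medians, with E15 above E12 cells by 0.06.

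**Figure D5:**
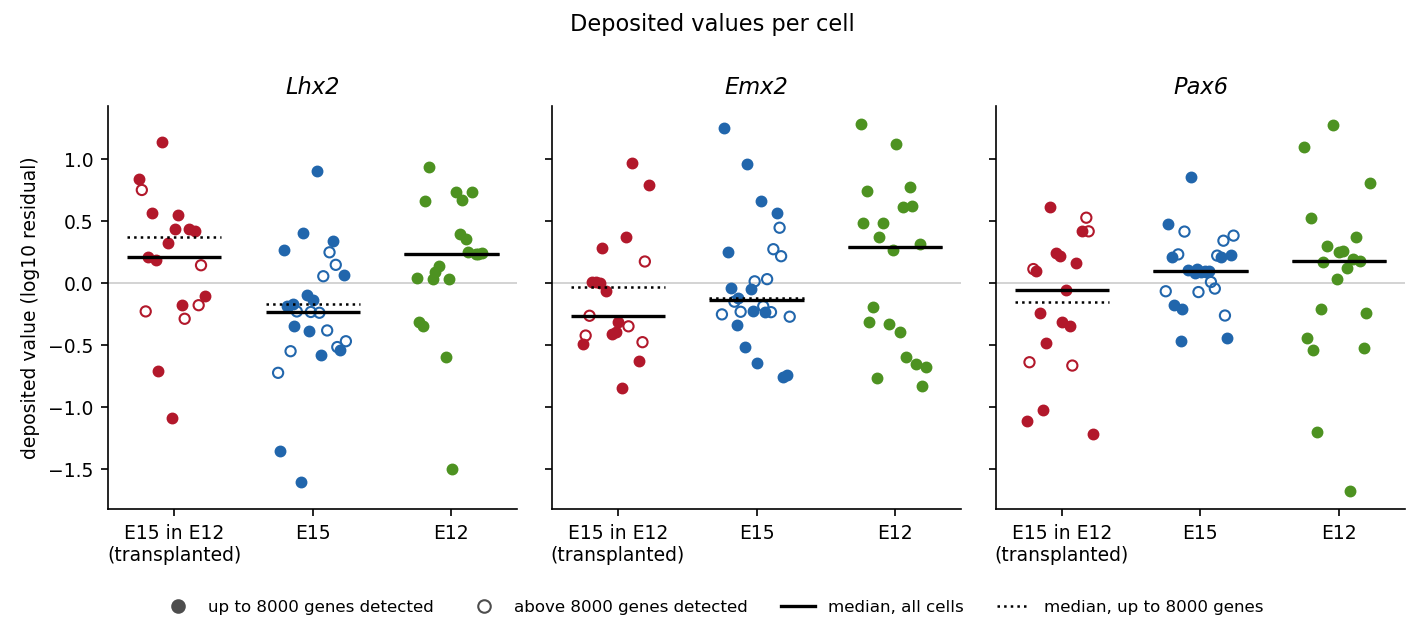
Deposited log10 residual (vertical axis) of each gene in transplanted, E15 and E12 cells; each point is 1 cell, open points are libraries above 8000 genes, solid lines are medians of all cells and dotted lines medians of the other libraries. The Lhx2 median of E15 cells, -0.23, lies below those of transplanted (0.21) and E12 cells (0.24), and the Pax6 points of the 3 groups overlap around 0.

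Across all 65 cells the 3 genes were only weakly related, with a Spearman rho of log2(CPM + 1) of 0.33 for Lhx2 and Pax6, 0.36 for Emx2 and Pax6 and 0.09 for Lhx2 and Emx2. These values describe cells whose libraries are of unequal depth. On the deposited residuals they were -0.07 for Lhx2 and Pax6, 0.19 for Emx2 and Pax6 and -0.05 for Lhx2 and Emx2. Within groups, Lhx2 and Pax6 had a rho of 0.43 in 19 transplanted, 0.51 in 26 E15 and -0.10 in 20 E12 cells, and 0.27 in the 15 E15 cells without the many-gene libraries. Pax6 had a rho of 0.90 with the summed apical progenitor markers in E15 cells, and 0.59 without the many-gene libraries. With the deposited residuals of Pax6 set against the same CPM sums, the values were 0.18 and -0.03. Pax6 had a rho of 0.31 with these sums in transplanted and -0.25 in E12 cells. In E15 cells Fabp7 and Dbi held 2611 and 2431 of the 7691 CPM summed over the apical markers. Fabp7 is also on the list of genes downstream of Pax6 used below. Lhx2 had a rho with these markers of 0.59 in transplanted, 0.57 in E15 and 0.10 in E12 cells, and of 0.44 in transplanted and 0.37 in E15 cells without the many-gene libraries. With the deposited residuals of Lhx2 in place of its CPM, the values were 0.18 in transplanted, 0.07 in E15 and -0.35 in E12 cells. Without the many-gene libraries these residuals gave -0.23 in transplanted and -0.23 in E15 cells. With neuronal markers, Pax6 had a rho of -0.37 in transplanted, -0.78 in E15 and -0.39 in E12 cells, and with its deposited residuals in place of its CPM 0.02 in E15 cells.

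The genes most like each of the 3 were taken from 9553 genes read in at least 25% of cells, by Spearman rho over the 65 cells. Lhx2 was most like Ldha (0.73), a lactate dehydrogenase subunit, followed by Pkm (0.67), a pyruvate kinase, Ckb (0.64), a creatine kinase, Nap1l1 (0.63), a histone chaperone, and Sox3 (0.62), a neural progenitor factor. Emx2 was most like Rexo2 (0.66), an oligoribonuclease, Degs1 (0.60), a dihydroceramide desaturase, Gpc4 (0.50), a glypican, and Jam3 (0.50), an adhesion molecule. Pax6 was most like Ptn (0.75), a growth factor of radial glia, followed by Gas1 (0.61), a hedgehog co-receptor, Sfrp1 (0.61), a Wnt antagonist, Lpar1 (0.60), a lysophosphatidic acid receptor, and Hmgn3 (0.56), a nucleosome-binding protein. With the group means taken out, Ldha stood at 0.67 with Lhx2, Rexo2 at 0.64 with Emx2 and Ptn at 0.67 with Pax6. Without the many-gene libraries, in 49 cells, they stood at 0.69, 0.64 and 0.67.

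Of 18 other listed factors that pattern the cortex, 10 were at least 2-fold lower in E15 than in E12 cells and 2 at least 2-fold higher, beside 20.3% of all genes lower and 25.3% higher. The median log2 ratio was -1.74 against -0.03 for all genes. Over the libraries up to 8000 genes 5 were lower, 3 were higher and the median was -0.56, beside 21.6% of all genes lower, so that the count of lower genes was near the background. Emx1, the paralogue of Emx2, stood at 10.1 CPM in E15 and 79.3 CPM in E12 cells, and at 33.3 CPM in E15 cells without the many-gene libraries. Tcf7l1, a repressor of Wnt targets, stood at 11.3 CPM in E15 and 201 CPM in E12 cells, the largest ratio in size of the list at -4.04, and at 32.3 CPM in E15 cells without the many-gene libraries. Dmrt3, a medial cortical factor, stood at 7.74 CPM in E15 and 76.5 CPM in E12 cells, although its E15 reads came from 1 cell. With the many-gene libraries left out it stood at 26.3 CPM in E15 cells.

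Between transplanted and E15 cells, 4 of the 17 patterning genes tested were at least 2-fold lower and 2 higher, beside 11.8% of all genes lower and 4.71% higher, and their median was 0.15 against -0.08 for all genes. Leaving out the many-gene libraries turned it to -0.38. Meis2, a homeodomain factor, stood at 212 CPM in transplanted and 535 CPM in E15 cells, and at 169 CPM in transplanted and 322 CPM in E15 cells without the many-gene libraries. Nr2f2, a caudal and ventral factor, stood at 34.4 CPM in transplanted and 6.67 CPM in E15 cells, but at 3.45 CPM in transplanted and 8.71 CPM in E15 cells without the many-gene libraries. Tcf7l2, an effector of Wnt signals, turned in the same way, with a ratio of 2.45 over all cells and -0.20 without them. Emx1 stood at 15.6 CPM in transplanted and 10.1 CPM in E15 cells, a ratio of 0.58 that came to 0.08 without the many-gene libraries. Between transplanted and E12 cells, 10 of 18 were lower, 2 were higher and the median was -1.20, beside 24.7% of all genes lower and 22.9% higher. Dmrt3 had the largest ratio in size there, -5.15, at 1.18 CPM in transplanted and 76.5 CPM in E12 cells, and at 3.23 CPM in transplanted cells without the many-gene libraries.

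LHX2 acts with LDB cofactors and single-stranded DNA-binding proteins, and LMO proteins compete for the same LDB surface. The list of 11 genes measured also holds Rlim, a ubiquitin ligase of LDB proteins, and Lhx9, another LIM-homeodomain gene. In E15 over E12 cells 3 were at least 2-fold lower and 4 higher (median -0.47), beside 20.3% of all genes lower and 25.3% higher. In transplanted over E15 cells 2 were lower and 2 higher (median -0.20), beside 11.8% of all genes lower and 4.71% higher. In transplanted over E12 cells 1 was lower and 3 higher (median -0.08), beside 24.7% of all genes lower and 22.9% higher. Lmo1 stood at 292 CPM in transplanted, 64.6 CPM in E15 and 23.9 CPM in E12 cells. Leaving out the many-gene libraries put it at 321 CPM in transplanted, 160 CPM in E15 and 23.9 CPM in E12 cells, the same order. Lmo4 stood at 127 CPM in transplanted, 450.3 CPM in E15 and 86.6 CPM in E12 cells, but at 71.8 CPM in transplanted and 128 CPM in E15 cells without the many-gene libraries. Ssbp2 stood at 178 CPM in transplanted, 161 CPM in E15 and 348 CPM in E12 cells, and at 139.7 CPM in transplanted and 185 CPM in E15 cells without the many-gene libraries.

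Genes known to act downstream of Pax6 went both ways. Of 12 listed genes, 4 were at least 2-fold lower and 2 higher in E15 than in E12 cells (median -0.46), beside 20.3% of all genes lower and 25.3% higher. Leaving out the many-gene libraries left 0 lower and 3 higher (median 0.50), beside 21.6% of all genes lower and 24.2% higher. In transplanted over E15 cells 1 was lower and 0 higher (median 0.04), beside 11.8% of all genes lower and 4.71% higher. Without these libraries 6 were lower and 1 higher (median -0.78), beside 28.0% of all genes lower and 18.7% higher. In transplanted over E12 cells 4 were lower and 3 higher (median -0.49), beside 24.7% of all genes lower and 22.9% higher. Neurog2, the proneural factor that Pax6 activates, stood at 26.4 CPM in transplanted, 44.1 CPM in E15 and 90.2 CPM in E12 cells. Eomes, which marks intermediate progenitors, stood at 26.4 CPM in transplanted, 53.8 CPM in E15 and 87.8 CPM in E12 cells. Without the many-gene libraries Neurog2 stood at 31.5 CPM in transplanted and 146 CPM in E15 cells, and Eomes at 31.9 CPM in transplanted and 147 CPM in E15 cells. Their ratios there, -2.18 and -2.17, had the sign of that of Pax6, at -1.21. In E15 over E12 without these libraries their ratios were 0.69 and 0.74, the opposite sign to that of Pax6 at -1.18. Over all libraries Neurog2 had a read in 7 transplanted and 8 E15 cells, and its ratios without the many-gene libraries can rest on fewer.

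Sfrp1, which was also among the genes most like Pax6, stood at 179 CPM in transplanted, 367 CPM in E15 and 926 CPM in E12 cells, the same order as Pax6. Libraries up to 8000 genes put it at 287 CPM in transplanted and 909.7 CPM in E15 cells. Fabp7 and Cdk4 were not in the order of Pax6. Fabp7, a radial glial fatty acid binding protein that is also on the apical list, stood at 3038 CPM in transplanted and 2611 CPM in E15 cells, against 1021 CPM in E12 cells. Its ratio of E15 over E12 was thus 1.35 where that of Pax6 was -2.54. Libraries up to 8000 genes put Fabp7 at 6959 CPM in transplanted and 8229.9 CPM in E15 cells. Cdk4, a cell cycle kinase, stood at 1341 CPM in transplanted, 1314 CPM in E15 and 1372 CPM in E12 cells, and at 1221 CPM in transplanted and 1275 CPM in E15 cells without the many-gene libraries.

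Signals that grade the 3 genes across the cortex were sparsely covered. Of 14 hem and roof plate genes 3 were in the tables and of 14 frontal FGF genes 5, and the others were not analysed here. Fgfr3, a receptor graded towards the caudal cortex, stood at 13.5 CPM in transplanted, 21.7 CPM in E15 and 84.8 CPM in E12 cells, and at 28.7 CPM in transplanted and 70.6 CPM in E15 cells without the many-gene libraries. Fgfr2 stood at 41.7 CPM in transplanted, 33.1 CPM in E15 and 107 CPM in E12 cells, and at 89.9 CPM in transplanted and 70.3 CPM in E15 cells without those libraries. Etv1, a target of FGF signals, stood at 33.2 CPM in transplanted and 38.2 CPM in E15 cells, against 2.83 CPM in E12 cells. Its ratio in transplanted over E15 turned from -0.20 over all cells to 1.81 without the many-gene libraries, at 57.3 CPM in transplanted and 15.6 CPM in E15 cells. Over the 5 FGF genes the median log2 ratio was -1.13 in E15 over E12, -0.20 in transplanted over E15 and -1.34 in transplanted over E12, and came to 0.16, -0.01 and -0.25 without the many-gene libraries. Wnt7a, a ligand of the cortical ventricular zone, stood at 27.3 CPM in transplanted, 35.0 CPM in E15 and 89.0 CPM in E12 cells, and at 12.1 CPM in transplanted and 53.9 CPM in E15 cells without the many-gene libraries. Of the 5 Cajal-Retzius markers listed none was in the tables.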

How the data were processed

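Libraries of 65 single cells were made with a SMART-Seq v4 3′ kit without molecular identifiers and Nextera XT, per the labels. Per the submitters' processing notes, STAR, HTSeq and mm10 were used, without versions. The 3 deposited tables hold log10 values: the values themselves show that the authors scaled the counts, added 1, took log10, centred each gene and regressed out 2 further directions over cells. Since the design had assumed counts, the whole numbers of reads behind these residuals were worked out: for 9935 genes, Lhx2 and Emx2 among them, from the plane that cells at 0 span, and for 472 genes, Pax6 among them, by a search. Each of the 356667 values above 0 came out whole to within 0.01. For the 472 genes found by the search, wholeness was the condition for accepting a solution and so is no check. On counts simulated for E15 over E12, 100% of 3040 genes were recovered exactly, and genes changed 4-fold gave median log2 ratios of 2.08 and -1.85. The simulation used the scaling and directions found in the data, so it cannot show whether that form of processing is right. Every gene in the tables had a read in at least 6 cells.

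Reads of a group were summed and scaled to CPM over the 10407 genes, with a pseudocount of 1 CPM. A listed gene was counted where either group reached 5 CPM, and past 2-fold means a log2 ratio of 1 or more, up or down. Intervals at 95% are exact: Poisson for levels, binomial for shares, and for ratios binomial given the sum of both groups. No test between groups was made. Named genes were the 3 genes, the 5 most like each, and from each list at most 3 by CPM and at most 3 by size of ratio in each comparison, and some of these are not reported here. The members and the 14 other lists were chosen with earlier results of these data known. Alternatives were mean or median CPM per cell, factors by TMM or by median of ratios (own code), counts thinned to 20000 reads, pseudocounts of 0.1 and 5 CPM, filters of 20 CPM and 1 count, totals without ribosomal and mitochondrial genes, and leaving out libraries above 8000 or 7000 genes, the 10 shallowest cells, each cell or each pool. No 2 libraries had identical counts. Scripts ran in Python 3.11.15 with pandas 2.3.3, SciPy 1.17.1, NumPy 2.4.6, Matplotlib 3.10.9 and Numba 0.67.0.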

Additional observations from a re-analysis of the deposited data

How the results depend on the processing

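Log2 ratios are given for Lhx2, Emx2 and Pax6 in that order. On summed CPM over all cells they were -2.67, -2.20 and -2.54 in E15 over E12, 0.74, -0.71 and -0.61 in transplanted over E15 and -1.93, -2.91 and -3.15 in transplanted over E12. Without libraries above 8000 genes they were -1.17, -1.20 and -1.18 in E15 over E12, 0.03, -0.64 and -1.21 in transplanted over E15 and -1.14, -1.84 and -2.39 in transplanted over E12. Without those above 7000 genes they were -1.17, -0.93 and -1.15 in E15 over E12, 0.05, -0.84 and -1.76 in transplanted over E15 and -1.12, -1.77 and -2.92 in transplanted over E12. On the mean CPM per cell they were -2.08, -1.33 and -1.66 in E15 over E12, 1.35, -0.22 and -0.72 in transplanted over E15 and -0.73, -1.55 and -2.38 in transplanted over E12. On that mean without libraries above 8000 genes they were -1.42, -0.72 and -1.02 in E15 over E12, 1.0, -0.47 and -1.17 in transplanted over E15 and -0.41, -1.19 and -2.20 in transplanted over E12. On the median CPM per cell they were -3.40, -3.40 and -2.24 in E15 over E12, 2.58, -1.19 and 0.39 in transplanted over E15 and -0.82, -4.59 and -1.85 in transplanted over E12. On that median without libraries above 8000 genes they were -1.25, -2.29 and -0.10 in E15 over E12, 0.77, -1.33 and -1.55 in transplanted over E15 and -0.48, -3.61 and -1.65 in transplanted over E12. With counts thinned to 20000 reads per cell they were -2.12, -1.69 and -1.95 in E15 over E12, 1.40, -0.01 and -0.56 in transplanted over E15 and -0.72, -1.70 and -2.51 in transplanted over E12. As means of the ratios within pools they were -3.19, -1.75 and -2.11 in E15 over E12, 1.82, -1.10 and -0.44 in transplanted over E15 and -1.58, -3.23 and -2.64 in transplanted over E12. With TMM factors they were -2.57, -2.11 and -2.44 in E15 over E12, 0.80, -0.64 and -0.55 in transplanted over E15 and -1.80, -2.79 and -3.02 in transplanted over E12. With median-of-ratios factors they were -2.63, -2.16 and -2.49 in E15 over E12, 0.80, -0.65 and -0.56 in transplanted over E15 and -1.83, -2.82 and -3.05 in transplanted over E12. A pseudocount of 5 CPM moved Emx2 in transplanted over E12 to -2.68. The medians of CPM per cell, the means without libraries above 8000 genes and the list medians without them were added after seeing the data.

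Leaving out 1 cell or 1 pool at a time gave Lhx2 ratios of -3.25 to -2.26 in E15 over E12, 0.32 to 1.19 in transplanted over E15 and -2.34 to -1.54 in transplanted over E12. For Emx2 the same gave ratios of -3.0 to -1.81 in E15 over E12, -1.17 to -0.14 in transplanted over E15 and -3.34 to -2.56 in transplanted over E12. For Pax6 it gave ratios of -2.94 to -2.17 in E15 over E12, -1.14 to -0.00 in transplanted over E15 and -3.69 to -2.17 in transplanted over E12. The Emx2 and Pax6 ratios nearest to 0 in transplanted over E15 came without pool F and pool E.

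No paired analysis was possible because the replicate numbers only count cells in accession order and the labels name no animal. Ratios within the pools that groups share are given above. Differences of deposited values turned in 4 settings: the means put Pax6 in E15 over E12 at 0.06 and Lhx2 in transplanted over E12 at 0.02, and the medians without libraries above 8000 genes put Emx2 in transplanted over E15 at 0.09 and Lhx2 in transplanted over E12 at 0.13. List medians that turned without those libraries were, in E15 over E12, 0.84 for 3 hem genes, 0.16 for the FGF genes and 0.50 for genes downstream of Pax6, and in transplanted over E15, -0.38 for patterning factors, 0.11 for LIM cofactors and -0.78 for genes downstream of Pax6. With a filter of 20 CPM, 868 genes were past 2-fold in transplanted over E15, against 1676 at 5 CPM. The share of cells with more Lhx2 than Pax6 reads stayed within its limits in the 3 alternatives run for each group. The cause of these shifts was not tested. Emx2 is limited most by depth, with 236 reads in all transplanted cells.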
